A study of Mus musculus with 7 samples.

Results

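Imprinted genes, which are expressed mainly from the chromosome inherited from 1 parent, were followed through mouse embryoid bodies in which the long non-coding RNA locus Meteor had been altered. The set was 37 gene symbols of known imprinted clusters and single imprinted genes, matched by NCBI gene number to tables of 24990 features. Of these, 32 had a feature of their own. The other 5 were found only in merged features that the authors' annotation joins with hosted microRNAs or a second gene. These were Meg3 (with Mir1906-1, Mir1906-2 and Mir770), Mirg (with Mir410 and Mir412), Rtl1 (with Mir3071), H19 (with Mir675) and Snrpn (with Snurf). The merged features are called the Meg3, Mirg, Rtl1, H19 and Snrpn features and are counted apart from the 32.

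All 7 libraries came from embryoid bodies (balls of differentiating stem cells grown off the dish) of the R1 mouse embryonic stem cell line on day 4 of differentiation. Cells were freed of feeder fibroblasts on gelatin and hung in drops of 500 cells per 27 µl in serum medium without Lif. By title there were 2 wild-type libraries (WT1, WT2), 2 with the Meteor promoter knocked out (pKO1, pKO2), 1 with the promoter inverted (pInv), 1 control (Ctrl) and 1 CRISPR knockdown of Meteor (KD). The series text names the knockdown agent Cas9 and the sample field dCas9, and the control is an empty vector. For 5 of the 7 libraries the genotype field contradicts the title: it gives both WT libraries as promoter knockouts, pKO1 as the inversion, and pKO2 and pInv as wild type. Groups follow the titles here, and each direction between groups depends on that choice. The labels do not say whether libraries of 1 group are separate cultures or clones, and the p-values describe the spread of these libraries alone, which may be technical. The libraries carry no allele information, so the levels are sums over both parental copies and imprinting itself was not measured.

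Imprinted genes lie in clusters whose parental expression is set by a differentially methylated control region laid down in the germ line. In many clusters a long non-coding RNA and protein-coding genes are expressed from opposite parental chromosomes. Many of the proteins act in growth, placental function and energy balance. Stem cells keep most imprints through differentiation, although the Dlk1-Meg3 cluster is known to lose its imprint in some cultured lines.

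Total expected counts ran from 1898350 (WT2) to 2564478 (WT1) per library, of which the 45S ribosomal RNA precursor took 12.9% (pInv) to 24.1% (WT2). WT2 thus had the fewest counts and the largest 45S share, and its TMM scaling factor, 0.881, was the lowest. The part of these in the levels of WT2 was not tested. Levels are given as CPM, expected counts scaled to library size with the TMM factors of edgeR, and 1 count was worth 0.375 to 0.600 CPM. WT2 stood apart: 11% of the 6608 genes averaging at least 10 CPM lay at least 2-fold under the other libraries' median there, against 0.696% in WT1. The 9 primitive streak and mesoderm markers summed to 486 CPM in WT2, with 1090 to 2517 CPM elsewhere. That of 6 definitive endoderm markers was 111 CPM in WT2 and 205 to 456 CPM elsewhere. Of 9 pluripotency markers, Pou5f1 held most of the sum and was highest in WT2 (2188 CPM) and lowest in KD (1086 CPM). The other 8 summed to 354 CPM in WT2, the lowest library, and 487 to 760 CPM elsewhere. These 8 did not move together. Tdgf1, Dppa5a and Nanog were lowest in WT2 (70.2, 121 and 7.80 CPM). Zfp42 and Fgf4 were highest there (24.0 and 10.2 CPM), and the rest lay between. Of other cells the samples could hold, 10 feeder fibroblast markers summed to 5.58 to 12.4 CPM, and 8 trophoblast markers to 4.80 to 11.1 CPM with Elf5 and Tpbpa at 0 throughout. The 11 extraembryonic endoderm markers summed to 32.7 to 63.3 CPM, highest in KD, with Sox7 at 0, and the macrophage markers to 221 CPM in KD and at most 1.87 CPM in the other libraries. In these bulk libraries, fewer cells of a type and less RNA per cell cannot be told apart. The Meteor transcript was not analysed here, so the titles were not checked against it.

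Members of the merged features include microRNAs, whose short mature forms 3′ libraries of polyadenylated RNA do not measure. The sequences below show what the Meg3, Mirg and H19 features hold beside the long RNA. They are the mature forms listed by RefSeq on GRCm38.p6, with the seed, bases 2 to 8, in capitals.
miR-1906: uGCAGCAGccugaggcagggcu
miR-770-5p: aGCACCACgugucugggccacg
miR-770-3p: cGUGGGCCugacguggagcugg
miR-410-5p: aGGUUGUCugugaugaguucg
miR-410-3p: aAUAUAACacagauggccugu
miR-412-5p: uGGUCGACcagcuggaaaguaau
miR-412-3p: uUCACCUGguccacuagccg
miR-675-5p: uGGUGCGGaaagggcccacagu
miR-675-3p: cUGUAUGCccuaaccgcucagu
No seed is shared between these microRNAs. The first is encoded at 2 places with the same mature sequence, inside the Meg3 locus (chr12:109544588-109544609, plus strand) and on the X chromosome (chrX:88759485-88759506, minus strand), and the feature counts both. The Mir410 and Mir412 products lie inside Mirg (chr12:109743303-109743784) and those of Mir675 inside H19 (chr7:142577078-142577133, minus strand).

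**Figure D1:**
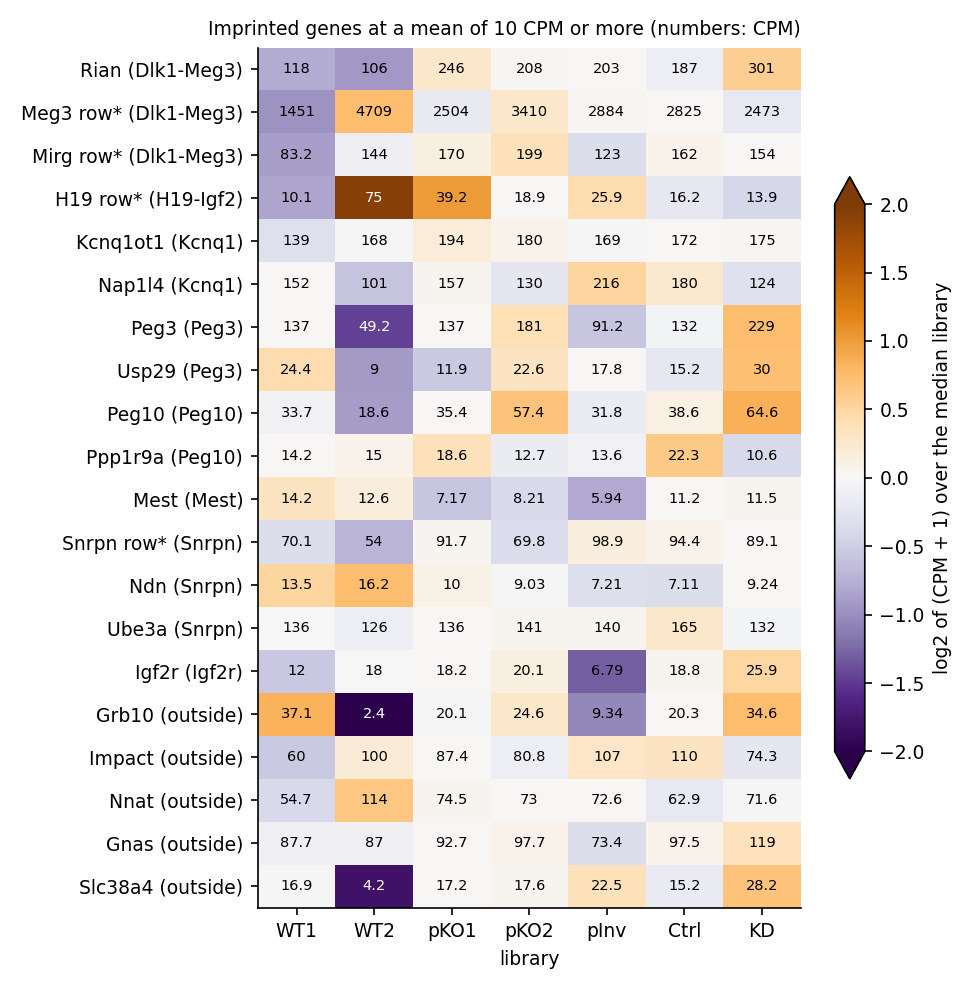
Level of the 20 imprinted features averaging at least 10 CPM (rows, with the cluster in brackets) in the 7 libraries (columns). The number in each cell is the level in CPM and the colour is log2 of (CPM + 1) over the median library; an asterisk marks a merged feature. Grb10, Slc38a4 and Peg3 are lowest in WT2, where the H19 feature is highest, and Rian is lower in both WT libraries than in the other 5.

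The expression filter of the fit kept 10265 features, among them 24 of the 32 single members and 4 of the 5 merged ones. The 8 single members not tested were Dlk1, Igf2, Slc22a18, Ascl2, Zim1, Sgce, Airn and Rasgrf1. Igf2, the fetal growth factor, ran from 0.600 to 4.57 CPM and Rasgrf1, an exchange factor for Ras, from 2.12 to 3.82 CPM. Airn, the non-coding RNA antisense to Igf2r, had 1 count in KD and 0 counts in the other 6 libraries. The Rtl1 feature had 0 counts in all 7, which allows up to 1.12 CPM in WT1, where the limit of 3 counts is lowest, and 1.80 CPM in WT2, where it is highest. Of the members tested, 8 had 10 counts or more in fewer than all 7 libraries.

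In the Dlk1-Meg3 cluster the 3 maternally expressed non-coding RNAs were present in every library, while the paternally expressed protein-coding genes Dlk1, a Notch-like growth regulator, and Rtl1, derived from a retrotransposon, were near or at 0. Meg3, Rian and Mirg lie in 1 direction on chromosome 12, and Rian hosts small nucleolar RNAs. Rian was at 118 (WT1) and 106 CPM (WT2), at 246 (pKO1) and 208 (pKO2) with the promoter deleted, at 203 in pInv, and at 187 in Ctrl against 301 in KD. Both WT libraries were thus the lowest of the 7, with a gap below Ctrl. The means were 112 ± 8.10 CPM in the WT pair and 227 ± 27.2 CPM in pKO (SD, n = 2 each).

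The log2 difference of Rian between pKO and WT was 1.01 (SE 0.26), and the quasi-likelihood test of edgeR gave it an adjusted p of 1 (0.00495 before adjustment). Against the same 2 WT libraries it was 0.85 (SE 0.32) in pInv and 0.73 (SE 0.32) in Ctrl, so the control for the knockdown also lay above WT. None of these differences passed the threshold after adjustment over all tested genes. Grouping by the genotype field turned the pKO to WT difference to −0.87 and the Ctrl to WT difference to −0.14. Of the 12 alternatives run, no other turned the direction of Rian in pKO against WT.

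The Meg3 feature did not follow Rian. It was at 1451 CPM in WT1 and 4709 in WT2, the lowest and the highest of all 7 libraries, with 2504 and 3410 in pKO1 and pKO2, 2884 in pInv, 2825 for Ctrl and 2473 for KD. WT2 was 3.25-fold higher than WT1, and the pKO libraries lay between them. The log2 difference of pKO from WT was −0.06 (SE 0.50), and without WT2 it became 1.05. The Mirg feature was at 83.2 and 144 CPM in the WT pair, 170 and 199 in the pKO pair, 123 in pInv, 162 in Ctrl and 154 in KD, a log2 difference of 0.70 (SE 0.32) for pKO against WT, or 0.36 without WT1 and 1.16 without WT2. Both pKO libraries were above both WT libraries for Mirg, but pInv lay between the 2 WT libraries.

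Set against the Meg3 feature of the same library, the level of Rian was 8.11% and 2.26% in the WT pair, 9.82% and 6.09% in the pKO pair, 7.05% in pInv, 6.61% for Ctrl and 12.2% for KD. The exact 95% interval, which covers counting error only, was 1.93% to 2.62% in WT2 and 7.21% to 9.10% in WT1. The 2 wild-type libraries therefore differed in this proportion by more than counting error, and WT1 fell inside the range of the pKO libraries. Across the 7 libraries the log2 levels of the Meg3 feature and Rian had a Pearson r of −0.07 (exact permutation p = 0.884) and a Spearman rho of −0.32 (exact permutation p = 0.498). The value rests on the WT libraries: r was −0.92 without WT1, 0.63 without WT2 and −0.67 without both. Meg3 with Mirg gave an r of 0.65, which was −0.06 without WT1 and 0.86 without WT2. Rian with Mirg gave 0.55, or 0.23 and 0.73. None of these passed the threshold after adjustment.

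**Figure D2:**
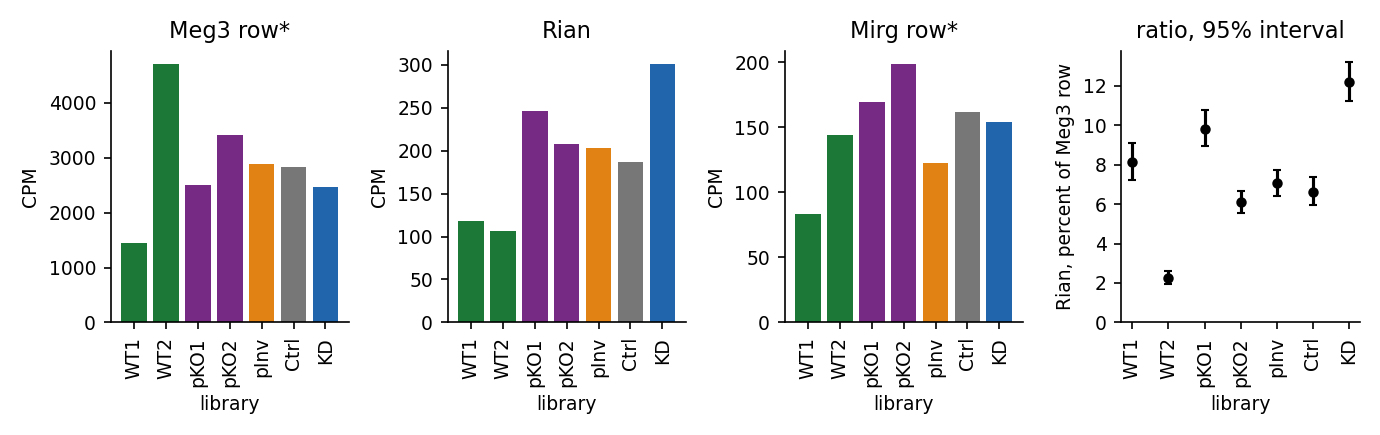
Levels in CPM of the Meg3 feature, Rian and the Mirg feature in each library (bars, 1 per library, from 0), and Rian as percent of the Meg3 feature with exact 95% counting intervals (points and bars, right). The WT1 and WT2 bars are the lowest for Rian and the 2 extremes for Meg3, and the ratio is lowest in WT2, at 2.26%, and highest in KD, at 12.2%.

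The windows around the upstream start of Meg3 and the start of Rian differ in the dinucleotide CG, the site of the methylation that marks imprints. Each runs from 250 bases before to 50 bases after the start (RefSeq, GRCm38.p6, plus strand), is printed because the 2 genes moved differently between the WT libraries, and has every CG in capitals. The table gives Meg3 2 starts, of which the upstream one is printed. Its window is chr12:109540746-109541045 and the Rian window chr12:109603695-109603994.
Meg3: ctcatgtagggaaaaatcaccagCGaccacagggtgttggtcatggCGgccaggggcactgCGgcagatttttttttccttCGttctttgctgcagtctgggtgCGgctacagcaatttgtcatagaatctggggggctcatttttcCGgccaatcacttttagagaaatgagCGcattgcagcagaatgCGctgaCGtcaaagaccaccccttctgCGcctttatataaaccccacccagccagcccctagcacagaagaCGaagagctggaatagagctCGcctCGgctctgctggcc
Rian: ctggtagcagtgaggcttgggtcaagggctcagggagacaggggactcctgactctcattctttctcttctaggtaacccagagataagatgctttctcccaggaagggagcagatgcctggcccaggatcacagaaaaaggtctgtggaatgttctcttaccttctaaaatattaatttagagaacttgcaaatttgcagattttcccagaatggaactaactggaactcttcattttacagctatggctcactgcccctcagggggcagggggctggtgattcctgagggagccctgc
The printed Meg3 window holds 13 CG and the Rian window 0. The Mirg window, not printed, holds 10. The window of the other Meg3 start (chr12:109545148-109545447) holds 1 CG and no TGCCGC, close to the Rian window. The median over the 32851 windows of the table was 7, and 5.43% of windows held none. The hexamer TGCCGC, bound in its methylated form by ZFP57, a zinc finger protein that keeps imprints, was searched on both strands. It occurs 1 time in the printed Meg3 window and not in that of Rian. It was in 11.6% of all windows and in 10 of the 47 windows of the 30 imprinted genes used here. The 10 belong to 9 genes, since overlapping windows of Mest were both counted. A match describes these letters only, and methylation was not measured. Whether the CG content of a window bears on the level of its gene was not tested.

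The H19 feature spanned 7.41-fold. H19, a maternally expressed non-coding RNA beside Igf2, was at 10.1 and 75.0 CPM in the WT pair, 39.2 and 18.9 in the pKO pair, 25.9 in pInv, 16.2 in Ctrl and 13.9 for KD. The 2 WT libraries were the lowest and the highest, and pKO lay inside their range. The log2 difference of pKO from WT was −0.52 (SE 0.79). H19 was the 1 feature among the 20 that stood at least 2-fold over the other libraries' median in WT2, where 3.5% of genes did, and again in pKO1, where 0.348% did. It was the 1 member as far below in WT1, where 0.696% of genes were. No member stood as far below or above in pKO2 (2.74% and 0.439% of genes), Ctrl (1.2% and 0.166%) or KD (1.51% and 2.06%).

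The Kcnq1 cluster is led by Kcnq1ot1, a paternally expressed antisense RNA that silences its neighbours. Kcnq1ot1 was at 139 and 168 CPM in the WT pair and 194 and 180 in the pKO pair, with 169 to 175 CPM in the other 3 libraries. The pKO libraries were above the WT libraries, with a log2 difference of 0.29 (SE 0.26). Cdkn1c, the maternally expressed cyclin-dependent kinase inhibitor of the cluster, was at 9.75 CPM in WT1 and 0.600 in WT2, 4.30 and 6.15 in the pKO pair, 5.94 in pInv, 12.7 in Ctrl and 7.85 in KD. Phlda2, which restrains placental growth, was at 1.20 to 3.75 CPM outside KD and 12.9 in KD. Nap1l4, a histone chaperone relative, was at 152 and 101.4 CPM in the WT pair, 157 and 130 in the pKO pair, 216 in pInv, 180 in Ctrl and 124 in KD. Its log2 difference of pInv from WT was 0.76 (SE 0.36), which did not pass after adjustment. Slc22a18, a transporter, and Ascl2, a trophoblast factor, reached at most 1.23 and 1.12 CPM.

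Peg3 and Usp29 are paternally expressed neighbours read from opposite strands of chromosome 7, and both were lowest in WT2. Peg3, a zinc finger protein of the Krüppel family, was at 137 and 49.2 CPM in the WT pair, 137 and 181 in the pKO pair, 91.2 in pInv, 132 in Ctrl and 229 in KD. Usp29, a ubiquitin-specific protease, was at 24.4 and 9.0 CPM in the WT pair, 11.9 and 22.6 in the pKO pair, 17.8 in pInv, 15.2 in Ctrl and 30.0 in KD. WT and pKO ranges overlapped for both. The log2 differences of pKO from WT were 0.75 (SE 0.45) for Peg3 and 0.02 (SE 0.54) for Usp29, and that of Peg3 was 0.23 without WT2 and 1.67 without WT1. The pair had a Pearson r of 0.81 over the 7 libraries (exact permutation p = 0.0252, adjusted p = 0.101 over 8 pairs) and a Spearman rho of 0.82 (exact permutation p = 0.0341). Without WT2 and KD, the libraries farthest from the median of Peg3, r was 0.26, so the relation rests on those 2. Zim1, their maternally expressed neighbour, reached at most 0.924 CPM.

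The windows of Peg3 and Usp29 are printed because they are nearly the same DNA read in opposite directions: 263 of the 300 bases are shared. That of Peg3 is chr7:6730370-6730669 on the minus strand and that of Usp29 chr7:6730333-6730632 on the plus strand (RefSeq, GRCm38.p6), each from its own 5′ end, with CG in capitals.
Peg3: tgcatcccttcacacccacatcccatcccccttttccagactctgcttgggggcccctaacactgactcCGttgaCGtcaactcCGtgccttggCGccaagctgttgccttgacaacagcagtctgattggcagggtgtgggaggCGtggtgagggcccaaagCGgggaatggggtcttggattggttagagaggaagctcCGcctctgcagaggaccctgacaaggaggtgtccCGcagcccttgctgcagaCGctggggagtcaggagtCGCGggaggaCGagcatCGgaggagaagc
Usp29: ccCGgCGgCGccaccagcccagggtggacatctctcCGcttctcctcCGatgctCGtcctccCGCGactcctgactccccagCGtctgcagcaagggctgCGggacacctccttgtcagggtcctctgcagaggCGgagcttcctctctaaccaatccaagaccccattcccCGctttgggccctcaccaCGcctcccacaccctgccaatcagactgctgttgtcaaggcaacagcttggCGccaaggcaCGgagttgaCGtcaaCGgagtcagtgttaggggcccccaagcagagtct
The Peg3 window holds 13 CG and the Usp29 window 17, and neither holds TGCCGC.

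Peg10, a paternally expressed gene of retrotransposon origin needed in the placenta, was at 33.7 and 18.6 CPM in the WT pair, 35.4 and 57.4 in the pKO pair, 31.8 in pInv, 38.6 in Ctrl and 64.6 for KD. The pKO libraries were above the WT libraries by a small margin at pKO1, and the log2 difference was 0.79 (SE 0.41). It was 1.28 without WT1, 0.47 without WT2, 1.10 without pKO1 and 0.41 without pKO2. Ppp1r9a, which encodes the actin-binding protein neurabin, was at 14.2 and 15.0 CPM in the WT pair, 18.6 and 12.7 in the pKO pair, 13.6 in pInv, 22.3 in Ctrl and 10.6 in KD. Asb4, a subunit of ubiquitin ligases, had 12 and 0 counts in the WT pair, 0 and 19 in the pKO pair, 0 in pInv, 2 in Ctrl and 20 for KD. Mest, a paternally expressed hydrolase-like gene, was at 14.2 and 12.6 CPM in the WT pair, 7.17 and 8.21 in the pKO pair, 5.94 in pInv, 11.2 in Ctrl and 11.5 in KD. Mest was the gene of this set with the lowest pKO to WT difference, −0.74 (SE 0.42), and did not pass. Copg2, a coat protein subunit antisense to Mest, was at 7.12 and 6.6 CPM in the WT pair, 10.0 and 5.74 in the pKO pair, and 7.61 to 12.9 in the other 3.

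For Peg10, Ppp1r9a, Asb4 and Mest the estimates share reads with another feature. The feature of Fgd5, on the plus strand of chromosome 6, has a transcript model of 92005037 bases in the deposited tables and took 4.16% to 5.46% of all counts. Among genes of chromosome 6 that precede Fgd5 and average 10 counts or more, 98.0% of expected counts on the plus strand were not whole numbers, against 22.7% on the minus strand. Beyond Fgd5 the shares were 25.3% and 30.2%. A feature of Fras1 on chromosome 5, of 97015729 bases, showed the same split, 98.3% against 30.9%. The counts were deposited with 2 decimals, and a value was taken as whole only where both were 0. A value that is not whole means that RSEM divided reads between features, and the division followed the strand, so the estimate used strand.

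All 4 of these genes lie on the plus strand before Fgd5, and their values above 0 were not whole in 6 of 7, 7 of 7, 4 of 4 and 7 of 7 libraries. Sgce and Copg2, in the same clusters on the minus strand, had whole values throughout. Sgce, which encodes a sarcoglycan and starts beside Peg10, reached at most 2.40 CPM. Per kilobase of transcript model, the Fgd5 feature held 0.932 to 1.45 counts, Asb4 0 to 3.81 and Peg10 3.62 to 16.2. How many reads of the 4 genes were given to Fgd5 was not tested, and their levels are uncertain for that reason. The Fgd5 and Fras1 features were also left out before scaling, an alternative added after the files were seen. It gives no reads back to the 4 genes, so it bears on the scaling only and cannot show the effect of the sharing. No count of genes called moved by over 1.5 times. No direction turned among the members re-tested (Rian, Meg3, Mirg, Peg3, Peg10, Igf2r and Inpp5f).

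**Figure D3:**
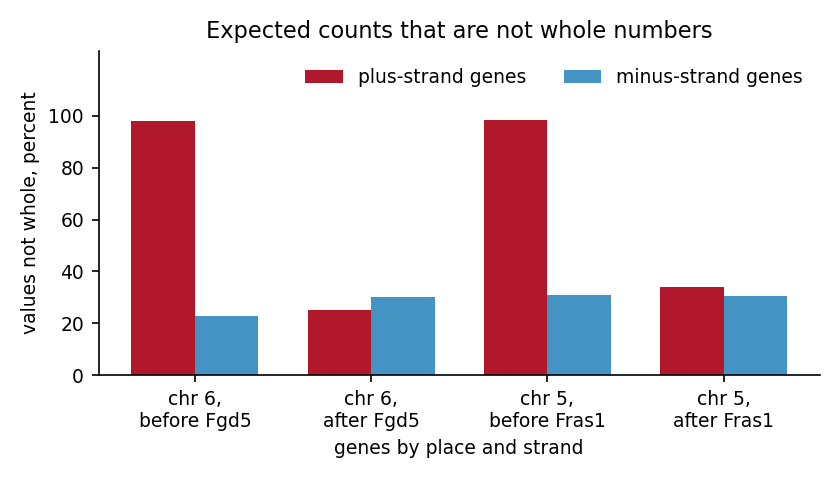
Percent of expected counts that are not whole numbers (bars) for genes averaging 10 counts or more, by strand and by place before or after the Fgd5 feature on chromosome 6 and the Fras1 feature on chromosome 5. Plus-strand genes before either feature stand at 98.0% and 98.3%, and the other 6 bars are between 22.7% and 33.9%.

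In the Snrpn cluster, whose human counterpart is tied to Prader-Willi and Angelman syndromes, 2 neighbours leaned in opposite directions. Their relation did not pass the threshold over all 7 libraries. The Snrpn feature, which encodes a spliceosomal protein, was at 70.1 and 54.0 CPM in the WT pair, 91.7 and 69.8 in the pKO pair, 98.9 in pInv, 94.4 in Ctrl and 89.1 in KD. Ndn, which encodes necdin of the MAGE family, was at 13.5 and 16.2 CPM in the WT pair, 10.0 and 9.03 in the pKO pair, 7.21 in pInv, 7.11 in Ctrl and 9.24 in KD. Both are paternally expressed. Ndn was highest in the WT libraries, on 14 (Ctrl) to 36 counts (WT1) per library. Snrpn was lowest in WT2, but was no lower in WT1 than in pKO2. Their log2 levels had a Pearson r of −0.86 (exact permutation p = 0.0119, adjusted p = 0.0952) and a Spearman rho of −0.71 (exact permutation p = 0.0881). The Pearson r was −0.92 without WT2 and pKO2, and in the 6 libraries without pKO2 it passed the threshold (exact permutation, adjusted p = 0.0444), while without WT2 it was −0.70.

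Magel2, another MAGE gene, ran from 0.924 CPM in KD to 6.6 in WT2. Mkrn3, a ring finger protein, was at 4.50 and 18.0 CPM in the WT pair and 5.25 and 11.9 in the pKO pair, and at 6.46 to 7.64 in the other 3. Ube3a, a ubiquitin ligase imprinted in neurons, was the steadiest feature of the cluster: 136 and 126 CPM in the WT pair, 136 and 141 in the pKO pair, 140 in pInv, 165 in Ctrl and 132 in KD, a 1.31-fold range.

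Grb10, an adaptor that restrains insulin and growth factor signalling, had the widest range of the members at 10 CPM or more. It was at 37.1 CPM in WT1 and 2.40 in WT2, 20.1 and 24.6 in the pKO pair, 9.34 in pInv, 20.3 in Ctrl and 34.6 for KD. The 2 WT libraries were again the extremes, 15.5-fold apart. Slc38a4, an amino acid transporter, was at 16.9 and 4.20 CPM in the WT pair, 17.2 and 17.6 in the pKO pair, 22.5 in pInv, 15.2 in Ctrl and 28.2 in KD. Grb10, Peg3, Usp29 and Slc38a4 were the 4 of 20 members that stood 2-fold or more below the other libraries' median in WT2, where 11% of genes did. Plagl1, a zinc finger protein, was at 3.75 CPM in WT1 and 0.600 in WT2, and at 0.849 to 7.61 in the rest.

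Impact, Nnat and Gnas had narrower ranges, from 1.62-fold (Gnas) to 2.08-fold (Nnat). Impact, a regulator of translation, was at 59.97 and 100.2 CPM in the WT pair and 74.3 to 110 in the other 5 libraries. Nnat, a membrane proteolipid of the developing brain, was at 54.7 and 114 CPM in the WT pair and 62.9 to 74.5 elsewhere. Gnas, the stimulatory G protein subunit, was at 87.7 and 87.0 CPM in the WT pair, 92.7 and 97.7 in the pKO pair, 73.4 in pInv, 97.5 in Ctrl and 119 in KD.

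Setting pKO beside WT addresses the effect of losing the Meteor promoter. No imprinted gene passed: edgeR's quasi-likelihood test called 0 of 10265 genes (0%), as did DESeq2 and limma. At an unadjusted p under 0.05, 1 of the 24 single members (Rian) and 1.03% of all genes were found. Of the 24, 18 had a higher fitted level in pKO and 6 a lower one, with a median log2 difference of 0.14, beside 49.3% higher and a median of −0.00 over all tested genes. The count of higher members was 15 of 24 without WT2 (median 0.14) and 18 without WT1 (median 0.36). With groups from the genotype field it was 13 of 24. The members were also split by the parental origin listed for each gene, which was not measured in these libraries. Of those listed as maternally expressed, Ube3a among them, 10 of 14 were higher, with a median of 0.12. Of those listed as paternally expressed, 10 of 14 were higher, with a median of 0.26, merged features included.

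Both pKO libraries lay above both WT libraries for 8 of the 24 (Rian, Kcnq1ot1, Peg10, Ube3a, Igf2r, Gnas, Slc38a4 and Inpp5f), where 12% of all tested genes did. Both lay below for Mest and Ndn, where 12.9% of genes did. For Ube3a and Gnas the separation was narrow, with log2 differences of 0.08 and 0.12. The test over all groups at once called 10 genes (0.0974%), none of them imprinted members, with Rian the lowest among the members in unadjusted p (0.0159, a level under 0.05 that 2.83% of genes reached) and an adjusted p of 1 in edgeR's test.

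**Figure D4:**
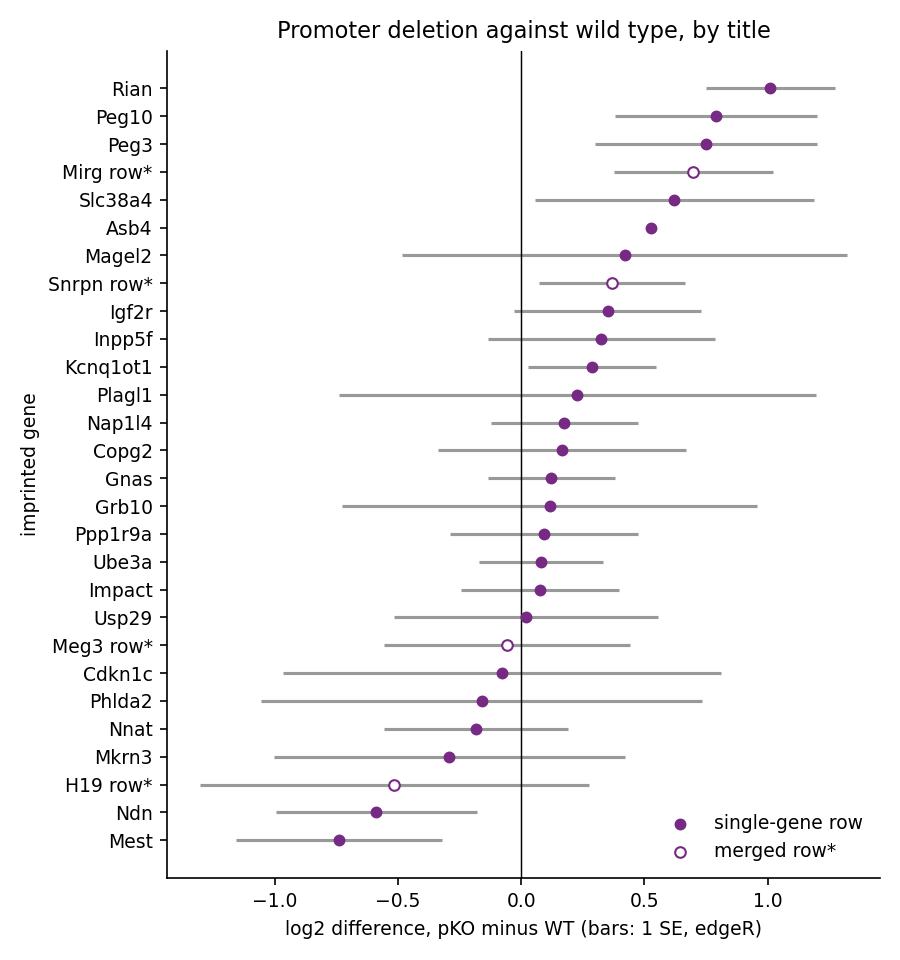
Fitted log2 difference of pKO from WT (points) with 1 SE from edgeR (bars) for the 28 imprinted features tested; open points are merged features. Rian is farthest to the right at 1.01 and Mest farthest to the left at −0.74, and Asb4 has no bar because its SE could not be estimated.

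The pInv library asks what turning the promoter around does, and shares its WT libraries with the comparison above. No gene passed against WT or against pKO (0% each in edgeR's test; DESeq2 and limma called 0 as well), and 1.48% and 1.49% of genes had an unadjusted p under 0.05. Igf2r, the receptor that carries IGF2 to the lysosome, was at 6.79 CPM in pInv, 12.0 and 18.0 in WT, 18.2 and 20.1 in the pKO pair, 18.8 in Ctrl and 25.9 in KD. Inpp5f, a phosphoinositide phosphatase, was at 2.55 CPM in pInv, 9.0 and 6.6 in WT, 9.55 and 10.7 in the pKO pair, 9.14 in Ctrl and 9.24 in KD. For both genes pInv was the lowest library of the 7, as it also was for Mest, Gnas and the untested Rasgrf1. The share of all genes that were lowest in pInv was not counted.

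The log2 difference of pInv from WT was −1.03 (SE 0.51) for Igf2r and −1.35 (SE 0.69) for Inpp5f. From pKO it was −1.38 (SE 0.51) and −1.67 (SE 0.68), with unadjusted p of 0.0200 and 0.0182 and adjusted p of 1 in edgeR's test. Inpp5f rested on 6 counts in pInv, and pInv is 1 library whose spread is taken from WT and pKO. Igf2r and Grb10 were the 2 of 20 members at 2-fold or more below the other libraries' median in pInv, where 1.35% of genes were. Of the 24 single members, 10 were fitted higher in pInv than in WT (median log2 −0.07) and 7 higher than in pKO (median −0.18), beside 48.5% and 49.4% of all tested genes. Without WT1, 14 of the 24 were higher in pInv than in WT (median 0.12). With the genotype field's groups the directions turned for Igf2r and Inpp5f against both.

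Ctrl against WT, which asks whether the vector control resembles unmodified cells and uses the same WT libraries, called 0 genes (0% in edgeR's test, and 0 by DESeq2 and limma), with 1.38% of genes at an unadjusted p under 0.05. Of the 24 members, 16 were fitted higher in Ctrl, with a median log2 difference of 0.18, beside 47.2% of all tested genes. Rian, at 0.73, was the 1 member under an unadjusted p of 0.05 (0.0468 in edgeR's test). Cdkn1c and Plagl1 had larger fitted differences, 1.06 (SE 1.0) and 1.39 (SE 1.06), at 12.7 and 7.61 CPM in Ctrl.

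The knockdown asks what loss of the Meteor RNA does, and KD and Ctrl are 1 library each, so there is no replicate check. A gene was called by size where the 2 libraries differed 2-fold or more and it reached 20 CPM in either. Of 5083 genes at that level, 4.03% were called higher in KD and none of these was an imprinted member. Lower calls took 1.26% of genes and 1 member, Ppp1r9a, at 0.475 of its Ctrl level (exact 95% interval 0.274 to 0.805, counting error only), which is among the genes that share reads with Fgd5.

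Several members above that level were higher in KD with intervals above 1 but under the 2-fold size in CPM. The share of all genes with intervals that leave out 1 was not counted. The list therefore describes these members only and does not set them apart from other genes. Rian was 1.61-fold higher (1.42 to 1.84), Peg3 1.73-fold (1.49 to 2.02), Usp29 1.97-fold (1.26 to 3.15) and Slc38a4 1.85-fold (1.18 to 2.97). From TPM the ratio of Usp29 was 2.06, above 2-fold. Peg10 was 1.68-fold higher (1.26 to 2.25), Grb10 1.71-fold (1.15 to 2.57) and Gnas 1.22-fold (1.01 to 1.48). Nap1l4 was at 0.691 (0.588 to 0.812) and Impact at 0.678 (0.549 to 0.835) of their Ctrl levels. Ube3a was at 0.800 (0.680 to 0.941) and the Meg3 feature at 0.876 (0.843 to 0.909), also with intervals under 1. Below the 20 CPM minimum, Phlda2 had 28 counts in KD and 6 in Ctrl, or 4.24 times the CPM (1.72 to 12.5). Asb4 had 20 counts in KD and 2 in Ctrl, or 9.10 times the CPM (2.21 to 80.3). Peg10 and Asb4 also share reads with Fgd5, and their intervals do not cover the uncertainty of that division. The 6 macrophage markers summed to 221 CPM in KD and 1.02 to 1.87 CPM in the other 6 libraries, and the streak markers were at 2517 CPM in KD and 1534 in Ctrl. The part of either in these ratios was not tested.

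Peg3 followed the summed level of the streak and mesoderm markers from library to library more closely than all but 1 other gene. Lhx1, T and Eomes held most of that sum, and the single markers did not share 1 order. In pKO2, Peg3 was at 181 CPM, but Fgf8 and Mixl1 were at 27.1 and 52.1 CPM, with only WT2 lower for either marker. Eomes was highest in WT1 (459 CPM), while Lhx1 was highest in KD (1138 CPM). The summed level of the 9 markers was 1605 and 486 CPM in the WT pair, 1365 and 1996 in the pKO pair, 1090 in pInv, 1534 in Ctrl and 2517 for KD. Peg3 took nearly the same order, with a Pearson r of 0.99 on the log2 scale (exact permutation p = 0.000595, adjusted p = 0.187 over 10256 genes) and a Spearman rho of 0.96 (exact permutation p = 0.00278). Its r was 0.98 without WT2 and 0.96 without WT2 and KD. This relation was examined after the values were seen, and no gene of the 10256 passed after adjustment at this number of libraries.

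Peg10 had an r of 0.95 (exact permutation p = 0.000794, adjusted p = 0.187; rho 0.89, exact permutation p = 0.0123) and Grb10 of 0.95 (exact permutation p = 0.00337, adjusted p = 0.198; rho 0.89, exact permutation p = 0.0123). Without WT2 and KD these were 0.83 and 0.77. An r of 0.9 or more was reached by 3 of the 28 imprinted features and 1.81% of all genes. The median r was 0.37 over the 28 and 0.04 over all genes. Usp29 had an r of 0.85 (exact permutation p = 0.00913, adjusted p = 0.234), which fell to 0.48 without WT2 and KD. Other members turned without those libraries: Slc38a4 went from 0.87 to −0.64 and Rian from 0.69 to −0.22, and Cdkn1c fell from 0.83 to 0.25. Some rose instead, among them Igf2r (0.31 to 0.75), Inpp5f (0.45 to 0.83), Gnas (0.62 to 0.81) and Asb4 (0.77 to 0.89). Of the 19 features with an r above 0, 7 were below 0 without WT2 and KD. The H19 feature had an r of −0.84 (exact permutation p = 0.0198, adjusted p = 0.271) with a Spearman rho of −0.79 (exact permutation p = 0.0480), and −0.48 without those 2. The order of the libraries by marker level cuts across the titles, since WT2 was the lowest, WT1 the third highest, and pKO1 lay below WT1.

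**Figure D5:**
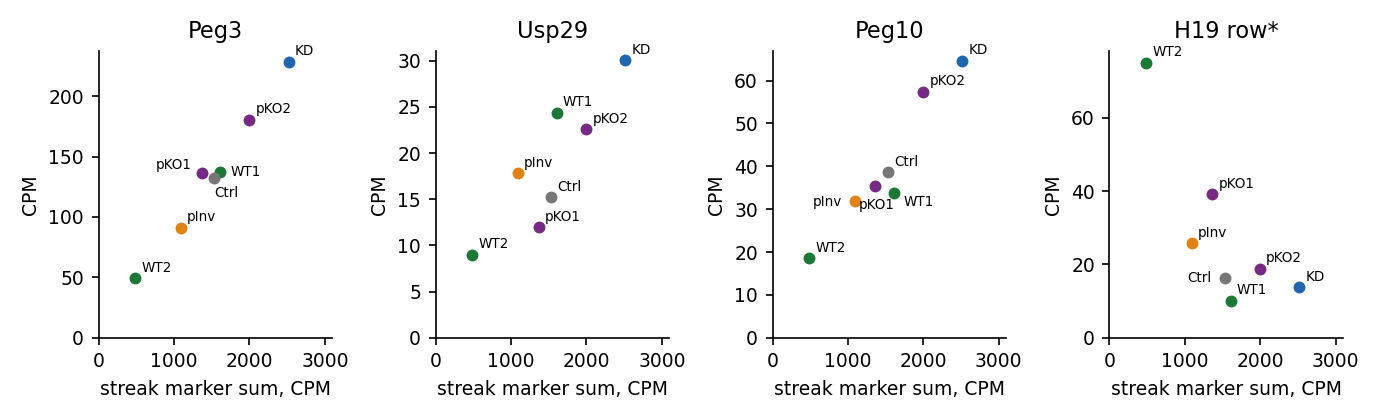
Level of Peg3, Usp29, Peg10 and the H19 feature (vertical axis, CPM) against the summed level of 9 primitive streak and mesoderm markers (horizontal axis, CPM), 1 point per library. Peg3 and Peg10 climb from WT2 at 486 CPM of marker to KD at 2517 CPM, while the H19 feature is highest in WT2.

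Other imprinted genes outside the set were measured from a list of 45, of which 44 matched and 22 were tested. Of the 22, 10 were fitted higher in pKO than in WT and 12 lower (median log2 −0.12), and 0 passed in any comparison. The 4 with the smallest p over all groups were Blcap, Ddc, Atp10a and Pon2. Blcap was at 3.75 and 3.0 CPM in the WT pair, 11.0 and 5.74 in the pKO pair, 4.67 in pInv, 8.63 in Ctrl and 13.9 in KD. Ddc, the decarboxylase of dopamine and serotonin synthesis, was lowest in KD at 44.8 CPM and highest in WT2 at 119. Atp10a, a lipid flippase, was also lowest in KD (4.62 CPM) and highest in WT2 (18.6 CPM), and Pon2, a lactonase, ran from 2.40 CPM in WT2 to 11.0 in pInv.

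Of 12 factors that maintain imprints, 11 were tested, 7 were fitted higher in pKO than in WT (median log2 0.04), and 0 passed in any comparison. Zfp57 was at 4.50 and 2.40 CPM in the WT pair, 6.21 and 10.3 in the pKO pair, 2.97 in pInv, 9.65 in Ctrl and 4.62 in KD. Zfp445, a further zinc finger protein that binds imprinting control regions, ran from 43.8 CPM in WT2 to 77.2 in Ctrl. Hells, a chromatin remodeller needed for DNA methylation, ran from 151 CPM in pKO2 to 234 in Ctrl. Ctcf, which binds the H19 control region, was highest in WT2 at 336 CPM, with 195 to 251 elsewhere.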

How the data were processed

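Polyadenylated RNA was made into Lexogen QuantSeq 3′ libraries, per the labels' protocols. For each library the authors deposited RSEM expected counts, TPM and FPKM per feature, per the file headers. RSEM and the mouse build mm9 are named in the submitters' processing notes, without a version. Expected counts were rounded before testing. The authors' TPM, which are scaled to transcript length, served in alternatives, and the deposited FPKM were not used in a test. Symbols were matched by NCBI gene number to a RefSeq table of GRCm38, and strand and order of genes come from annotation of that build.

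All 7 libraries entered 1 edgeR 4.0.16 quasi-likelihood fit (R 4.3.3) with a coefficient per group, filterByExpr and TMM scaling. The fit left 2 residual degrees of freedom (prior 5.86), and the biological coefficient of variation was 0.294. A gene was called at an adjusted p under 0.05 (Benjamini-Hochberg, all 10265 tested). Log2 differences used a prior count of 2. The fit was also run on simulated counts with known changes. The share of changes recovered is not given here, so a lack of calls does not show that 2-fold changes are absent. Correlations used log2(CPM + 1), exact two-sided permutation and adjustment over 8 pairs, those of 13 in which both genes passed the filter.

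The members, gene lists and tests were chosen with earlier results of these data known. All members were to be described by cluster, with the 4 smallest p over any group difference named from each further list. Alternatives were DESeq2 1.42.0, limma 3.58.1 on log2(TPM + 1), RLE factors, no filter, leaving out the 45S feature, each replicate or the 2 long features, a replicate block, and the genotype field's groups. The windows of Cdkn1c, H19, Impact, Nap1l4, Peg10, Rtl1 and Sgce were not used here. Intervals cover counting error only, since the labels describe no molecular identifiers.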

Additional observations from a re-analysis of the deposited data

How the results depend on the processing

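With 2 libraries in 2 groups and 1 in the others, counts of called genes were unstable. Without the low-count filter the calls were 9 (pKO against WT), 6 (pInv against WT), 8 (pInv against pKO), 4 (Ctrl against WT) and 265 (any group difference). Leaving out each WT or pKO library in turn gave 0 to 7 calls for pKO against WT (4 without pKO1, 7 without pKO2), 0 to 7 for pInv against pKO (2 without pKO1, 7 without pKO2) and 27 to 48 for any group difference. For any group difference DESeq2 called 22 and limma 48. The replicate block, whose numbers the labels do not pair (the WT and pKO differences between numbers correlated at 0.435 over 6608 genes), gave 1 call for pInv against WT, 2 for Ctrl against WT and 17 for any group difference. Groups from the genotype field gave 7 calls for pInv against WT. The 10 CPM minimum gave 694 genes by size for KD against Ctrl, where the 20 CPM minimum gave 269. Leaving out pKO2 gave 1 correlated pair, Snrpn with Ndn, and the other 3 WT or pKO libraries gave 0. With the genotype field's groups, log2 differences turned to −0.87 (Rian), −0.50 (Mirg), −0.53 (Peg3) and −0.73 (Peg10) for pKO against WT, −0.14 for Rian in Ctrl against WT, 0.41 (Igf2r) and 0.47 (Inpp5f) for pInv against WT, and 0.28 (Igf2r) and 0.25 (Inpp5f) for pInv against pKO. Meg3 in pKO against WT turned to 0.20 with limma and 0.16 with the replicate block, and ranged from −0.67 (without WT1) to 1.05 (without WT2) as each WT or pKO library was left out, with 0.14 without pKO1. The genotype field changes which libraries form each group. For the other changes the cause was not tested. Of the single-gene values, 134 kept their direction and 13 turned. Among the 134, the KD to Ctrl ratio of Usp29 crossed the 2-fold size, at 1.97 from CPM and 2.06 from TPM.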
